A study of Mus musculus with 18 samples.

Results

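The genes described here encode proteins that build the mitotic spindle, move and count the chromosomes and split the cell at the end of division. The list held 35 genes, and 33 of them were measured, out of 12393 genes named on the arrays. A gene was measured where at least 1 probe set was annotated to its symbol alone, and where several were, the probe set with the highest mean over all arrays stood for the gene. Ccnb1 and Cdca8 have no expression value here and enter only the promoter windows.

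The samples were 18 microdissected lung tumours from 6 mice of the strain C57/B6-129SvJae, 10 weeks old, hybridised to single-colour arrays from 100 ng of total RNA each. The treated groups held 6 grade 3 tumours, named as p53-restored adenocarcinomas, and 4 grade 2 tumours, named as p53-restored adenomas, from mice given tamoxifen into the abdomen in 2 injections and collected on day 7 after the first. The untreated groups held 4 grade 3 adenocarcinomas and 4 grade 2 adenomas, and no vehicle is stated for them. The labels give no genotype. As background on the published model, both treated and untreated mice carry p53 alleles silenced by a removable stop cassette and a widely expressed Cre recombinase that tamoxifen switches on. Tamoxifen therefore acts on p53 in the whole animal and not in the tumour cells alone. No group given tamoxifen without p53 restoration is among the samples. An effect of p53 thus cannot be told apart from one of tamoxifen or of active Cre. All 6 treated grade 3 tumours (8688T1, T2, T3, T5, T6 and T11) and 3 of the 4 treated grade 2 tumours (8688T8, T9 and T10) were from 1 female, mouse 8688. Tumour 8639T4, the last of the treated grade 2 group, was from a male, as were all untreated tumours: 8584T3, 8565T1, 8629T10 and 8629T12 in grade 3, and 8700T1, 8700T3, 8565T3 and 8565T4 in grade 2. Treatment and mouse, and in grade 3 also treatment and sex, cannot be told apart, and since tumours of 1 mouse are not independent, p-values taken over tumours are too small. Where the values of a group of 4 are given without names, they follow the order of this list, with 8639T4 last.

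As background, a cell enters mitosis when CDK1 bound to a B-type cyclin becomes active, and Aurora and Polo-like kinases then mature the spindle poles and attach chromosomes to microtubules. The spindle checkpoint holds the anaphase-promoting complex back until every kinetochore is attached, after which cyclins and other proteins are marked for degradation and the midzone and contractile ring divide the cell. Most of these genes are transcribed late in the cell cycle, from promoters on which FOXM1 and B-MYB act in dividing cells and on which the repressive DREAM complex sits in resting cells, and p53 is known to lower many of them by way of p21. Their mRNA is widely read as a sign of how many cells of a tissue are dividing. In these bulk samples, fewer dividing cells and less RNA per dividing cell cannot be told apart.

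The arrays had log2 medians between 6.05 and 6.18. Of 10 measured markers of lung tumour epithelium, 9 were above the array median in every tumour, with list means between 10.84 and 11.38, and Nkx2-1 was below it. The tumours 8688T3 and 8639T4 had a raised signal of the 3' over the 5' end of control transcripts, a sign of RNA quality, at 2.62 and 1.85 in turn, against 0.62 to 1.05 in the others. Levels are given as log2 signals, and a difference is treated minus untreated log2 signal, fitted by limma over all tumours with the mouse as a random block. A difference was called where its p, adjusted by Benjamini-Hochberg over all 12393 genes, was under 0.05. Genes called lower or higher with treatment are said to fall or rise, although tumours of different mice are compared.

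The first comparison set the mitosis and cytokinesis genes of treated grade 3 tumours against those of untreated grade 3 tumours. All 33 measured genes had lower fitted log2 signals in treated than in untreated tumours, and 8 of them fell, while none rose. Across all genes, 0.347% fell by the same test. The 8 were the contractile ring scaffold Anln, the mitotic entry factor Cdca3, the centromeric histone Cenpa, the kinesins Kif20a and Kif4, the anaphase activator Cdc20, the checkpoint kinase Bub1b and the spindle protein Nusap1. The differences of the 33 genes ran from -1.99 to -0.55 with a median of -1.34, which is a 2.53-fold lower signal, beside a median of 0.03 over all genes. At an unadjusted p under 0.05, 32 of the 33 genes were lower, all but Bub1, against 4.48% of all genes. In 11 of the 33 genes every treated tumour was below every untreated tumour, against 2.21% of all genes. In treated grade 3 tumours the level of 24 of the 33 genes lay below the array median. Their fold sizes cannot be taken as exact, because processing can compress weak signals, which was not measured here.

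The mean log2 signal of the 33 genes in each tumour showed how the groups were arranged. It was 5.45 ± 0.26 (SD, n = 6) over the treated tumours of grade 3 and 6.69 ± 0.67 (SD, n = 4) over the untreated ones. The treated tumours ran from 5.20 to 5.89 with 8688T5 highest, and the untreated tumours read 5.75, 6.89, 6.82 and 7.31. The untreated 8584T3, at 5.75, lay inside the treated range, and the other 3 untreated tumours lay well above it. In grade 2 the means were 5.31 ± 0.34 (SD, n = 4) with treatment and 6.21 ± 0.40 (SD, n = 4) without it. The treated tumours read 5.44, 5.51, 5.50 and 4.80, and the untreated tumours 5.81, 5.92, 6.58 and 6.52, so the grade 2 groups did not overlap.

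**Figure D1:**
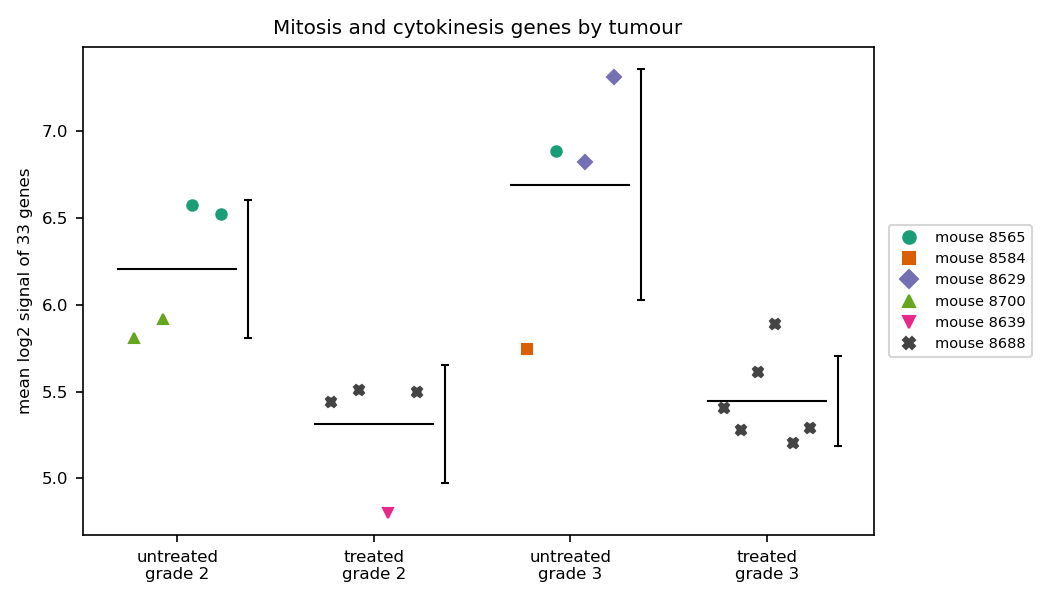
Each point is the mean log2 signal of the 33 measured genes in 1 tumour (vertical axis), by group (horizontal axis), with the mouse given by colour and shape, the group mean as a line and the SD as a bar beside it. The untreated grade 3 tumour of mouse 8584 sits at 5.75, inside the treated grade 3 range of 5.20 to 5.89, while the other untreated grade 3 tumours sit between 6.82 and 7.31.

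In grade 2 tumours the same 33 genes all had lower fitted signals in the treated group, but none passed the test across all genes. Their differences ran from -1.53 to -0.25 with a median of -0.98, a 1.98-fold lower signal, beside a median of 0.01 over all genes. By limma 0 genes were called lower, with a smallest adjusted p of 0.123 for Kif20a, against 0.0565% of all genes. At an unadjusted p under 0.05, 27 of the 33 were lower, against 3.36% of all genes. Every treated tumour was below every untreated tumour in 24 of the 33 genes, against 3.97% of all genes. List means of other cell types also differed between the groups in this grade: the mean of 4 B and plasma cell markers was 6.80 to 7.55 in treated and 7.80 to 8.66 in untreated tumours, and that of 5 fibroblast markers was 10.17 to 10.52 and 10.72 to 11.30. Of the 8 T and NK cell markers, whose list mean was 4.82 to 6.01 in treated and 5.65 to 6.53 in untreated tumours, all had negative fitted differences. All 5 endothelial markers also had negative differences, with a median of -0.24, and all 4 neutrophil markers positive ones, with a median of 0.58. By limma 0 markers of these 5 lists passed, with a smallest adjusted p of 0.591 and 4 fibroblast markers at an unadjusted p under 0.05, and their part in the result was not tested. Of the 10 markers of lung tumour epithelium, 9 had negative differences in grade 2, with a median of -0.24. None of these 10 was called by limma (smallest adjusted p = 0.78), and their part was not tested either. In grade 3 the list means of every marker list overlapped between treated and untreated tumours. All 5 endothelial markers had positive fitted differences there, with a median of 0.39, 1 at an unadjusted p under 0.05 and 0 called by limma (smallest adjusted p = 0.514), and their part in the grade 3 result was not tested.

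Averaged over both grades, 9 of the 33 genes fell, against 0.315% of all genes, with a median difference of -1.17. These were the 8 genes called in grade 3 and Ccnb2, a B-type cyclin. At an unadjusted p under 0.05 all 33 were lower, against 4.15% of all genes. The test of whether the treatment difference itself depended on grade called 0 of the 33 genes and 0% of all genes. The median of this interaction was -0.31, with 30 genes more negative in grade 3, beside 0.02 over all genes. At an unadjusted p under 0.05 only Anln was more negative in grade 3 (-0.76, SE 0.25, limma unadjusted p = 0.00824, adjusted p = 0.571), against 3.26% of all genes. A larger treatment difference in grade 3 than in grade 2 did not pass the test for any of these genes.

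**Figure D2:**
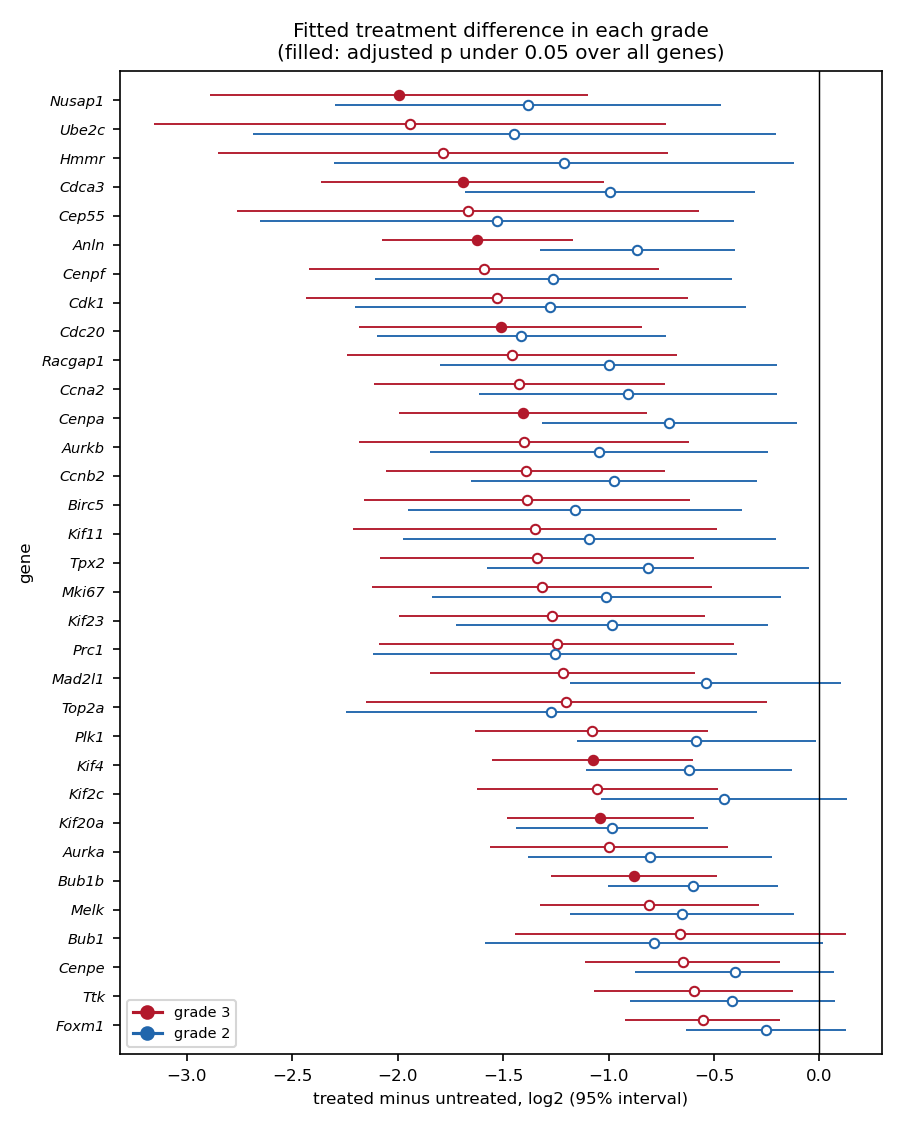
Fitted treated minus untreated log2 differences (horizontal axis) of the 33 genes (vertical axis, ordered by the grade 3 difference), with 95% intervals, in grade 3 (red) and grade 2 (blue). All points lie below 0, from Nusap1 at -1.99 to Foxm1 at -0.55 in grade 3, and filled points mark the 8 genes with an adjusted p under 0.05 over all genes, all of them in grade 3.

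Since all measured genes differed in 1 direction, the promoters of the listed genes were read for the letters of the elements that late cell cycle promoters are known for. RefSeq windows of 300 bases, from 250 before to 50 after a start, were given for 30 of the 35 genes, which made 32 windows on GRCm38.p6. These include the unmeasured Ccnb1 and Cdca8. Aurkb, Ccna2, Foxm1, Kif20a and Tpx2 had no window. The cell cycle genes homology region, searched as TTTGAA or TTCGAA on both strands, was in 81.2% of the member windows and 19.2% of all 32851 windows. The CCAAT box, searched as CCAAT on both strands, was in 75.0% and 37.4%, and both elements together were in 68.8% and 7.52%. At least 2 CCAAT boxes were in 50.0% and 11.7%. CCCGCC, a short core like that of E2F sites, was in 78.1% and 35.3%, but it was in 54.3% of the windows of genes on these arrays. These matches describe letters only, and binding was not measured.

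The 6 stretches printed next are the 120 bases before the start, 5′ to 3′ in the direction of the gene, with the letters of the homology region and the CCAAT box on either strand in capitals. CCCGCC is left in lower case, and these stretches hold it on either strand 3 times in Anln and 1 time each in Cdk1 and Top2a. The homology region shows as TTTGAA, as its reverse TTCAAA or as TTCGAA. The CCAAT box shows as CCAAT or, in reverse, as ATTGG. Cdk1, Cdc20, Top2a and Ube2c are shown because they hold both elements near the start, and Ccnb2 because it has 3 CCAAT boxes there and a TTTGAA at base 4 after the start. Anln, the gene with the smallest adjusted p, is shown because it has neither element in this stretch, although TTTGAA occurs on both strands from bases 21 and 28 after the start. They lie at chr10:69352913-69353032 on the minus strand (Cdk1), chr4:118437344-118437463 on the minus strand (Cdc20), chr11:99024190-99024309 on the minus strand (Top2a), chr2:164769809-164769928 on the plus strand (Ube2c), chr9:70421555-70421674 on the minus strand (Ccnb2) and chr9:22389207-22389326 on the minus strand (Anln).
Cdk1: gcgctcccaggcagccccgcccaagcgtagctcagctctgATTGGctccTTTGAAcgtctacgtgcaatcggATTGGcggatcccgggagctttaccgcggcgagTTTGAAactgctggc
Cdc20: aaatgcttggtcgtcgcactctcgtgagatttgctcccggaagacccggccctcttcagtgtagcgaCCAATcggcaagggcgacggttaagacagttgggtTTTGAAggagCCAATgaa
Top2a: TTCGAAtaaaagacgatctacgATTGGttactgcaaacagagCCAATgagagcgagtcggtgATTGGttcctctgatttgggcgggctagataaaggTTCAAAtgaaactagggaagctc
Ube2c: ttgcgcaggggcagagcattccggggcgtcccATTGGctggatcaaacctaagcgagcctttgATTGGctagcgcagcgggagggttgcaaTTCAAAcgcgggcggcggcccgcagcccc
Ccnb2: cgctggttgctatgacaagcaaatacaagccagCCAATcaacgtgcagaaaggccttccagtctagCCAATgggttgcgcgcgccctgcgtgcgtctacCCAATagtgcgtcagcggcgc
Anln: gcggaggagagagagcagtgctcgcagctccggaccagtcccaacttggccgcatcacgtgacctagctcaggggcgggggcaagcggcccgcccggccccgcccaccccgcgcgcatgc
In Cdc20 a TTTGAA lay at bases -18 to -13, between CCAAT boxes at -53 and -8. In Cdk1 it lay at -71 and again at -15, and in Ube2c the reverse form lay at -29.

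Among the cyclins and CDK1, the engine of mitotic entry, all 3 measured genes had lower fitted signals in treated tumours of both grades, and none was called in a single grade. For Cdk1, log2 signals of the treated grade 3 tumours had a lowest, median and highest value of 5.49, 5.60 and 6.30, against 5.74, 7.81, 7.46 and 7.96 in the untreated tumours. The median treated tumour of Cdk1, the kinase that drives entry into mitosis, was below all untreated tumours, but 8584T3 at 5.74 lay within the treated range. The fitted difference of Cdk1 was -1.53 (SE 0.43, limma adjusted p = 0.141). In grade 2, Cdk1 read 5.79, 5.92, 5.67 and 4.78 in treated and 6.26, 6.53, 7.30 and 7.11 in untreated tumours. In Cdk1 the grade 2 groups did not overlap, and the difference was -1.28 (SE 0.44, adjusted p = 0.547). Signals of Ccnb2 in grade 3 were 4.66, 4.96 and 5.50 at the lowest, median and highest treated tumour, and 5.47, 6.66, 6.54 and 6.89 in untreated tumours. Ccnb2, a B-type cyclin that activates CDK1, overlapped between the groups through 8584T3. In grade 2, Ccnb2 read 5.05, 5.06, 5.01 and 4.49 in treated and 5.29, 5.61, 6.26 and 6.27 in untreated tumours. Its grade 2 groups did not overlap, 8639T4 was lowest, and averaged over grades Ccnb2 fell by 1.18 on the log2 scale (SE 0.26, adjusted p = 0.0477). Ccna2, the cyclin of S phase and early mitosis, differed by -1.42 in grade 3 (adjusted p = 0.062) and -0.91 in grade 2 (adjusted p = 0.617).

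Mki67, which encodes the Ki-67 protein that coats mitotic chromosomes and is stained to count cycling cells, did not pass the test in either grade. Mki67 had lowest, median and highest log2 signals of 7.57, 7.84 and 8.51 in the treated grade 3 tumours, and read 8.06, 9.57, 9.20 and 9.72 in the untreated ones. Only 8584T3 lay within the treated range, and the difference was -1.32 (SE 0.38, adjusted p = 0.161). In grade 2, Mki67 read 7.94, 8.20, 7.87 and 6.80 in treated and 8.12, 8.32, 9.02 and 9.17 in untreated tumours. The treated 8688T9 lay above the untreated 8700T1, and the difference was -1.01 (SE 0.39, adjusted p = 0.652). For Top2a, log2 signals of the treated grade 3 tumours had a lowest, median and highest value of 7.31, 7.56 and 8.48, against 7.42, 9.24, 9.11 and 9.49 in the untreated tumours. For Top2a, the topoisomerase that untangles sister chromatids, 8584T3 was below the median of the treated tumours and the difference was -1.20 (SE 0.45, adjusted p = 0.337). In grade 2, Top2a read 7.48, 7.79, 7.74 and 6.37 in treated and 8.04, 8.46, 8.67 and 9.08 in untreated tumours. The grade 2 groups of Top2a did not overlap, with a difference of -1.27 (SE 0.46, adjusted p = 0.591). The other probe set of Top2a, whose mean relative to the array median was -3.54, differed by 0.12 in grade 3.

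**Figure D3:**
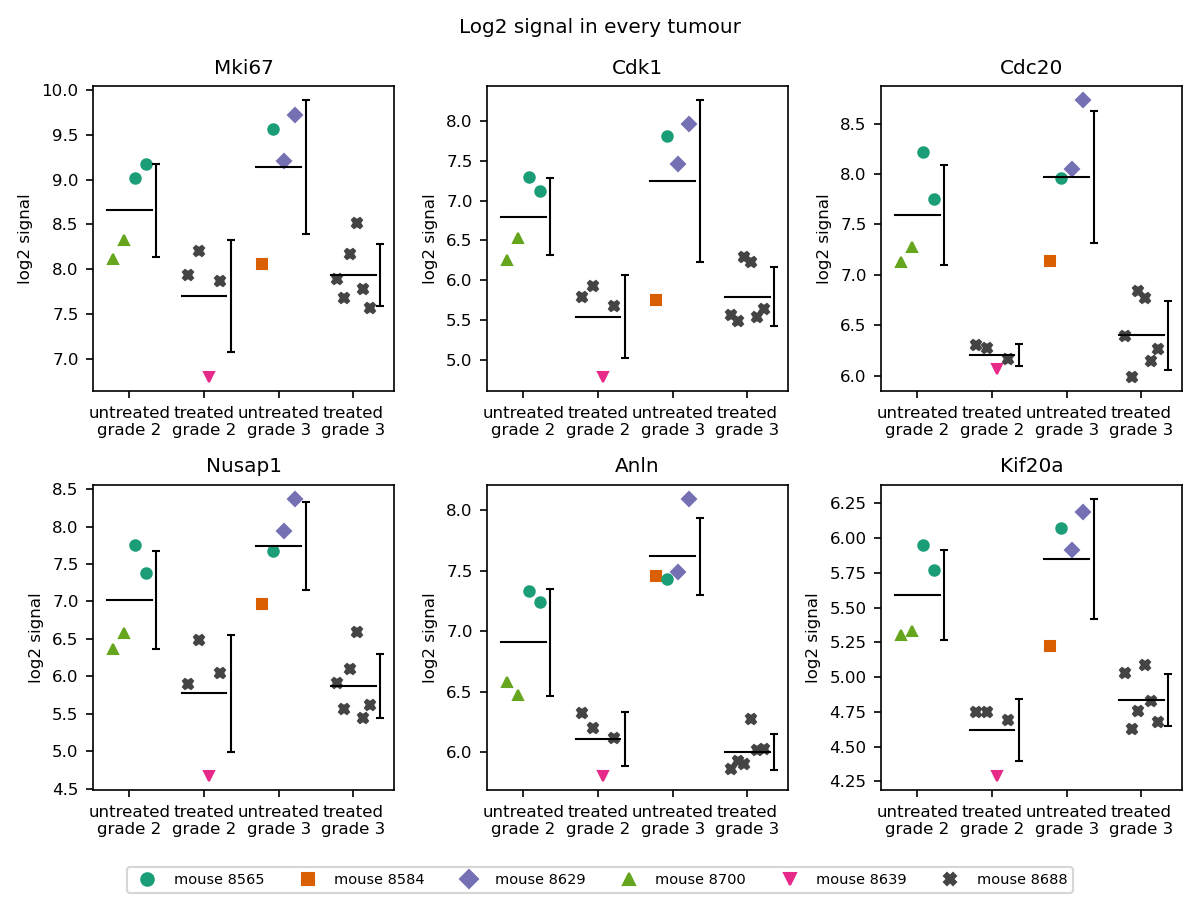
Log2 signal (vertical axes) of Mki67, Cdk1, Cdc20, Nusap1, Anln and Kif20a in every tumour by group (horizontal axes), with the mouse as colour and shape, the group mean as a line and the SD as a bar. In Cdk1 the untreated tumour of mouse 8584 reads 5.74, among the treated grade 3 tumours, and in Anln it reads 7.46, beside the other untreated grade 3 tumours.

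The transcription factor Foxm1, which drives many of the other genes, had the smallest grade 3 difference of the list. Signals of Foxm1 in grade 3 were 3.53, 3.82 and 3.90 at the lowest, median and highest treated tumour, and 4.01, 4.10, 4.26 and 4.82 in untreated tumours. The grade 3 groups of Foxm1 did not overlap, yet the difference of -0.55 (SE 0.17, adjusted p = 0.223) did not pass. In grade 2, Foxm1 read 3.76, 3.77, 3.92 and 3.48 in treated and 3.96, 3.73, 4.03 and 4.03 in untreated tumours. These groups overlapped, since 8700T3 read below 3 treated tumours, and the difference was -0.25 with a 95% interval of -0.63 to 0.12. All 4 group means of Foxm1 lay below the array median, and the part of weak signal in the size of its difference was not tested.

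None of the mitotic kinases Aurka, Plk1 and Melk passed. Plk1 had lowest, median and highest log2 signals of 3.33, 3.63 and 4.03 in the treated grade 3 tumours, and read 3.87, 5.28, 4.83 and 5.14 in the untreated ones. Plk1, the Polo-like kinase of spindle pole maturation and cytokinesis, overlapped between the groups, with 8584T3 below the treated 8688T5, and differed by -1.08 (SE 0.26, adjusted p = 0.081). In grade 2, Plk1 read 3.68, 3.67, 3.63 and 3.71 in treated and 4.17, 4.02, 4.35 and 4.72 in untreated tumours. The treated values of Plk1 in grade 2 were almost equal and below every untreated tumour, with a difference of -0.58 (SE 0.27, adjusted p = 0.742). Their mean relative to the array median was -2.43, and all group means of Plk1 were below that median. The part of weak signal in these values was not tested. Aurka, which acts at spindle poles, differed by -0.998 in grade 3 and -0.80 in grade 2, and the kinase Melk by -0.81 and -0.65.

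Of the 4 spindle checkpoint genes, which delay anaphase until chromosomes are attached, Bub1b fell in grade 3 and the other 3 did not pass. For Bub1b, log2 signals of the treated grade 3 tumours had a lowest, median and highest value of 5.69, 5.96 and 6.18, against 6.42, 6.95, 6.94 and 6.78 in the untreated tumours. All untreated tumours were above all treated ones, 8584T3 included, and Bub1b fell by 0.88 on the log2 scale (SE 0.19, adjusted p = 0.0437). In grade 2, Bub1b read 6.11, 5.58, 5.88 and 5.66 in treated and 6.65, 6.27, 6.15 and 6.61 in untreated tumours. Here too the groups were apart, although 8565T3 was close to the treated 8688T8, and the difference was -0.60 (SE 0.19, adjusted p = 0.487). Mad2l1, which blocks CDC20 at the checkpoint, was also without overlap in both grades, with differences of -1.22 (adjusted p = 0.0834) and -0.54. The kinases Bub1 and Ttk differed by -0.66 and -0.60 in grade 3, and in both of them 8584T3 was below the median of the treated tumours.

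Cdc20 and Ube2c work with the anaphase-promoting complex, the first as its activator and the other as the enzyme that hands it ubiquitin. Signals of Cdc20 in grade 3 were 5.98, 6.33 and 6.84 at the lowest, median and highest treated tumour, and 7.13, 7.96, 8.05 and 8.74 in untreated tumours. No tumour overlapped between the groups, and Cdc20 fell by 1.51 on the log2 scale (SE 0.32, adjusted p = 0.0402), to 35.1% of the untreated signal. In grade 2, Cdc20 read 6.31, 6.28, 6.17 and 6.06 in treated and 7.12, 7.28, 8.22 and 7.75 in untreated tumours. The treated grade 2 tumours lay close together, far below the lowest untreated tumour, with a difference of -1.41 (SE 0.33, adjusted p = 0.171). The other probe sets of Cdc20 had grade 3 differences of -1.21 and -0.96. Ube2c differed by -1.94 in grade 3 (SE 0.57, adjusted p = 0.174) and -1.45 in grade 2 (adjusted p = 0.686), and 8584T3 at 5.79 lay within its treated range. Cdca3 had lowest, median and highest log2 signals of 5.16, 5.47 and 6.03 in the treated grade 3 tumours, and read 6.33, 7.20, 7.12 and 7.77 in the untreated ones. Cdca3, which helps the degradation of the CDK1 inhibitor WEE1, did not overlap and fell by 1.69 (SE 0.32, adjusted p = 0.0223). In grade 2, Cdca3 read 5.58, 5.65, 5.58 and 4.63 in treated and 5.95, 5.99, 6.50 and 6.69 in untreated tumours. These groups did not overlap either, with 8639T4 lowest, and the difference was -0.99 (adjusted p = 0.497). The call for Cdca3 rests on 1 probe set: the other 2 had means of -4.73 and -4.78 relative to the array median and differences of 0.00 and 0.08.

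The chromosomal passenger complex corrects faulty attachments and later directs cytokinesis, and its 2 measured subunits did not pass. For Aurkb, log2 signals of the treated grade 3 tumours had a lowest, median and highest value of 4.38, 4.80 and 5.31, against 5.11, 6.08, 6.26 and 7.14 in the untreated tumours. Aurkb, its kinase, overlapped through 8584T3, which read below the treated 8688T5, and differed by -1.40 (SE 0.37, adjusted p = 0.118). In grade 2, Aurkb read 4.58, 4.84, 4.87 and 3.77 in treated and 5.20, 5.24, 5.87 and 5.59 in untreated tumours. The treated tumours were all below the untreated tumours, and the difference was -1.05 (adjusted p = 0.591). Signals of Birc5 in grade 3 were 8.34, 8.55 and 9.37 at the lowest, median and highest treated tumour, and 9.003, 10.12, 9.99 and 10.58 in untreated tumours. For Birc5, which encodes survivin, 8688T5 stood above the other treated tumours and above 8584T3, and the difference was -1.39 (SE 0.37, adjusted p = 0.116). In grade 2, Birc5 read 8.47, 8.63, 8.73 and 7.43 in treated and 8.93, 9.08, 9.84 and 9.73 in untreated tumours. Its grade 2 groups did not overlap, with a difference of -1.16 (adjusted p = 0.497).

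At the centromere, Cenpa fell in grade 3. Cenpa had lowest, median and highest log2 signals of 4.20, 4.43 and 4.80 in the treated grade 3 tumours, and read 5.10, 5.98, 5.92 and 6.37 in the untreated ones. All untreated tumours were above all treated ones, and Cenpa, the histone variant that marks the centromere, fell by 1.41 (SE 0.28, adjusted p = 0.0322). All group means of Cenpa were below the array median. In grade 2, Cenpa read 4.53, 4.48, 4.75 and 3.97 in treated and 4.61, 4.76, 5.39 and 5.63 in untreated tumours. In grade 2 the treated 8688T10 was above 8700T1, and the difference was -0.71 (adjusted p = 0.681). Cenpf, a large kinetochore protein, did not overlap in either grade and differed by -1.59 (adjusted p = 0.0859) and -1.26. Cenpe, a kinetochore motor, differed by -0.65 and -0.40, and all 4 of its group means were below the array median.

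Of the 5 kinesins, motors that slide and shorten microtubules, Kif20a and Kif4 fell in grade 3. For Kif20a, log2 signals of the treated grade 3 tumours had a lowest, median and highest value of 4.63, 4.79 and 5.08, against 5.22, 6.07, 5.92 and 6.19 in the untreated tumours. No tumours overlapped in Kif20a, a motor of the central spindle, and it fell by 1.04 (SE 0.21, adjusted p = 0.0329). All group means of Kif20a were below the array median. In grade 2, Kif20a read 4.75, 4.75, 4.69 and 4.29 in treated and 5.30, 5.33, 5.95 and 5.77 in untreated tumours. The grade 2 groups also did not overlap, and the difference of -0.98 (SE 0.22, adjusted p = 0.123) had the smallest p of the list in that grade. Signals of Kif4 in grade 3 were 3.32, 3.65 and 4.04 at the lowest, median and highest treated tumour, and 4.21, 4.72, 4.69 and 5.13 in untreated tumours. Kif4, which shapes chromosomes and the midzone, did not overlap in grade 3 and fell by 1.08 (SE 0.23, adjusted p = 0.0397), with all its group means below the array median. In grade 2, Kif4 read 3.83, 3.58, 3.66 and 3.21 in treated and 3.78, 3.92, 4.48 and 4.39 in untreated tumours. In grade 2 the treated 8688T8 was above 8700T1, and the difference was -0.62 (adjusted p = 0.622). Kif11, which pushes the spindle poles apart, differed by -1.35 and -1.09 in the 2 grades. Among the alternatives of processing, the smallest differences of Kif11 were -0.0015 in grade 3 and -0.27 in grade 2. Kif2c, which shortens microtubules at centromeres, differed by -1.05 and -0.45, and Kif23, a motor of the midzone, by -1.27 and -0.98.

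Nusap1, Tpx2 and Hmmr bind and nucleate spindle microtubules, and Nusap1 had the largest grade 3 difference of the list. Nusap1 had lowest, median and highest log2 signals of 5.44, 5.76 and 6.59 in the treated grade 3 tumours, and read 6.96, 7.67, 7.94 and 8.37 in the untreated ones. Every untreated tumour was above every treated one, and Nusap1 fell by 1.99 (SE 0.42, adjusted p = 0.0437), to 25.1% of the untreated signal. In grade 2, Nusap1 read 5.90, 6.48, 6.04 and 4.67 in treated and 6.37, 6.58, 7.75 and 7.39 in untreated tumours. The treated 8688T9 was above 8700T1, 8639T4 was far below the rest, and the difference was -1.38 (SE 0.43, adjusted p = 0.483). The weaker probe set of Nusap1 differed by -0.35 in grade 3 (adjusted p = 0.62 over all probe sets). Tpx2, an activator of Aurora A, differed by -1.34 and -0.81 in the 2 grades, and Hmmr, a spindle pole protein, by -1.79 and -1.21.

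Of the 4 genes of the midzone and cytokinesis, Anln fell in grade 3. For Anln, log2 signals of the treated grade 3 tumours had a lowest, median and highest value of 5.86, 5.97 and 6.28, against 7.46, 7.43, 7.49 and 8.10 in the untreated tumours. The untreated tumours of Anln, the scaffold that ties actin, myosin and septins in the contractile ring, stood more than 1 log2 unit above the treated ones. In Anln 8584T3 was level with 8565T1 and 8629T10. Anln fell by 1.62 (SE 0.21), to 32.5% of the untreated signal, and its adjusted p of 0.00224 was the smallest of the 33. In grade 2, Anln read 6.32, 6.20, 6.12 and 5.80 in treated and 6.58, 6.48, 7.33 and 7.24 in untreated tumours. The treated grade 2 tumours were all below the untreated ones, with a difference of -0.86 (SE 0.22, adjusted p = 0.281). Signals of Cep55 in grade 3 were 6.16, 6.38 and 7.09 at the lowest, median and highest treated tumour, and 6.66, 8.48, 8.11 and 9.24 in untreated tumours. Cep55, which recruits the machinery that cuts the last bridge between daughter cells, overlapped through 8584T3 and differed by -1.67 (SE 0.52, adjusted p = 0.214). In grade 2, Cep55 read 6.32, 6.97, 6.78 and 5.28 in treated and 7.08, 7.43, 8.69 and 7.97 in untreated tumours. No grade 2 tumours overlapped, 8639T4 was far below the other treated tumours, and the difference was -1.53 (SE 0.53, adjusted p = 0.547). Prc1, which bundles midzone microtubules, differed by -1.25 in both grades, and Racgap1, a regulator of the furrow, by -1.46 in grade 3 (adjusted p = 0.0983).

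**Figure D4:**
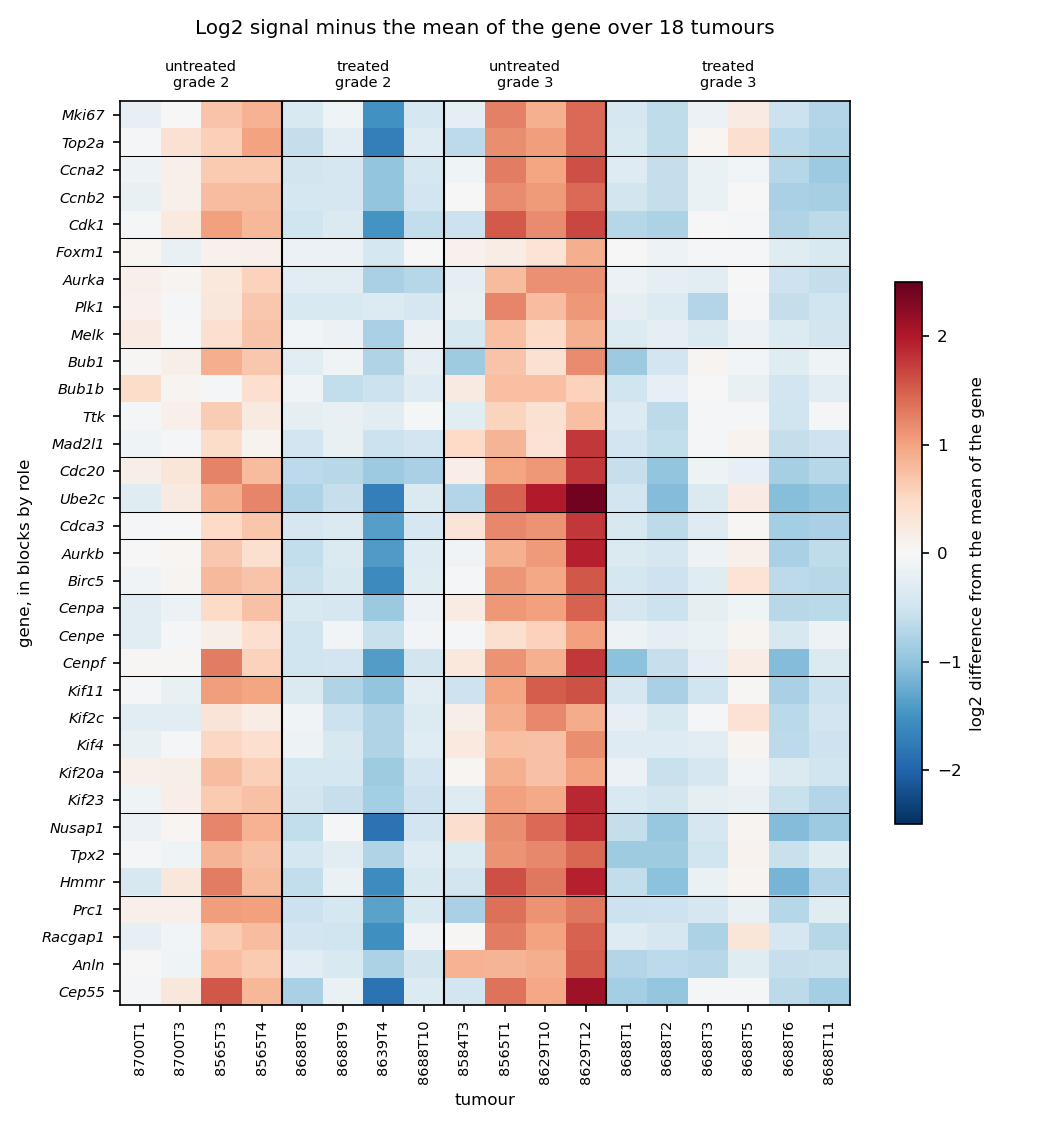
Log2 signal minus the mean of the gene over 18 tumours (colour, blue lower and red higher), with the 33 genes in rows by role and the tumours in columns by group. The column of 8639T4 is the darkest blue, at 4.80 in the mean of the 33 genes, the column of 8629T12 the darkest red, at 7.31, and the column of 8584T3 is pale, at 5.75.

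The untreated tumours differed from each other widely. In grade 3, 8584T3 was the lowest untreated tumour in 31 of the 33 genes, against 32.8% of all genes, and 8629T12 the highest in 29, against 28.5%. The tumour 8584T3 was above every treated grade 3 tumour in 11 of the 33 genes, against 22.5% of all genes, and below the treated median in Top2a, Melk, Bub1, Ttk, Kif11 and Prc1, while 8565T1, 8629T10 and 8629T12 were above every treated tumour in all 33, against 16.1%, 17.4% and 23.1% of all genes. Without 8584T3, 32 of the 33 genes were called lower in grade 3, with a median difference of -1.67, against 1.61% of all genes. In grade 2 that fit called 3 of the 33 lower, against 0.169% of all genes. Over all genes, the calls in either direction went from 64 to 294 in grade 3 and from 10 to 49 in grade 2. In untreated grade 2 tumours both tumours of mouse 8565 were above both of mouse 8700 in 32 of the 33 genes, with a median difference of 0.71. That ordering held for 17.5% of all genes. Both tumours of mouse 8565 were above every treated grade 2 tumour in all 33 genes, against 19.3% of all genes for 8565T3 and 28.5% for 8565T4. The tumour 8700T1 was so in 25 of the 33, against 23.9%, and 8700T3 in 31, against 20%.

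The treated tumours were more alike, apart from 8639T4 and 8688T5. All of them but 8639T4 were from mouse 8688, so likeness within 1 mouse cannot be told apart from an effect of treatment. The male 8639T4 was the lowest treated grade 2 tumour in 31 of the 33 genes, against 26.6% of all genes, and its 3' signal excess of 1.85 was the highest of its group. It was below all 4 untreated grade 2 tumours in all 33 genes, with a median difference of -1.31, against 19.9% of all genes. The part of RNA quality in this was not tested. The 3 treated grade 2 tumours of the female 8688 alone had lower means than the untreated grade 2 tumours in all 33 genes, with a median difference of -0.70, and did not overlap with them in 24, against 7.17% of all genes. Both treated mice, 1 female and 1 male, had lower grade 2 values than the mean of the untreated males in all 33 genes. Of all genes, 53.6% were lower in the female and 43.5% in the male. The male value is that of 1 tumour, 8639T4, and the part of sex was not tested. In grade 3, 8688T5 was the highest treated tumour in 27 of the 33 genes, against 9.72% of all genes.

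The calls in single genes depended on which tumours were in the fit, and Anln in grade 3 kept its call in all 18 fits that left out 1 tumour (largest adjusted p = 0.011). The number of genes called in grade 3 was 8 with all tumours and 32 without 8584T3. It was 11 without 8688T5, 9 without 8700T1, 7 without 8639T4, 6 without 8688T9, 5 without 8688T8 and 4 without 8688T10. It was 3 without 8688T1, 8629T10, 8700T3 or 8565T3, 2 without 8688T2, 8688T6 or 8688T11, and 1 without 8688T3, 8565T1, 8629T12 or 8565T4. Cdca3 lost its call without 8688T3, 8565T1, 8629T12 or 8565T4 (adjusted p up to 0.0542) and Kif20a without 8688T2, 8688T3, 8688T6, 8688T11, 8565T1, 8629T10, 8629T12, 8700T3 or 8565T4 (up to 0.0878). Cenpa lost it without 8688T1, 8688T2, 8688T3, 8688T6, 8688T11, 8565T1, 8629T10, 8629T12, 8565T3 or 8565T4 (up to 0.071). Bub1b kept its call without 8688T5, 8688T8, 8688T9, 8584T3 or 8700T1 and lost it without any other tumour (up to 0.115). In the same way Cdc20 kept it without 8688T5, 8639T4, 8584T3 or 8700T1 (otherwise up to 0.0925), Kif4 without 8688T5, 8639T4, 8584T3 or 8700T1 (up to 0.0878) and Nusap1 without 8688T5, 8688T9, 8639T4, 8584T3 or 8700T1 (up to 0.0968). In the 18 fits the members' median difference in grade 3 ranged from -1.67 to -1.17, and all 33 genes stayed below 0. Without both 8688T3 and 8639T4, the tumours with a 3' excess, 2 genes were called in grade 3, with a median difference of -1.25, and 1 averaged over grades. Averaged over grades, Anln and Kif20a were called in all 18 fits. The number called was 9 with all tumours, 32 without 8584T3, 12 without 8688T5, 10 without 8700T1, 7 without 8688T10, 6 without 8688T9 and 5 without 8688T2, 8688T6 or 8688T8. It was 4 without 8688T1, 8688T11, 8629T12 or 8700T3, 3 without 8688T3, 8639T4, 8565T1, 8629T10 or 8565T3, and 2 without 8565T4. Of the averaged calls, Cdc20 lost its own without 8565T4 (adjusted p = 0.069), Cdca3 without 8688T3, 8639T4, 8565T1, 8629T10, 8565T3 or 8565T4 (up to 0.0857) and Bub1b without 8688T1, 8688T3, 8688T11, 8639T4, 8565T1, 8629T10, 8629T12, 8700T3, 8565T3 or 8565T4 (up to 0.143). Ccnb2 kept it without 8688T5, 8584T3 or 8700T1 (otherwise up to 0.163), Cenpa without 8688T5, 8688T10, 8584T3 or 8700T1 (up to 0.147), Kif4 without 8688T5, 8584T3 or 8700T1 (up to 0.164) and Nusap1 without 8688T5, 8688T9, 8688T10, 8584T3 or 8700T1 (up to 0.111). Where tumours of a mouse in a group were first averaged, which leaves 1 treated mouse in grade 3, 0 of the 33 genes were called by limma in either grade or averaged over them, and 1 of all 12393 genes was called in each of these comparisons. With sex as a covariate 1 of the 33, Anln, was called in grade 3 (adjusted p = 0.0493). Only the treated grade 2 group held both sexes, so the sex term rests on its 1 male, 8639T4. That fit is therefore no control for sex in grade 3.

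Grade was compared among untreated and among treated tumours, which are the same tumours as in the treatment comparisons. Among untreated tumours 32 of the 33 genes had higher fitted signals in grade 3 than in grade 2, with a median difference of 0.45, a 1.36-fold higher signal, beside -0.01 over all genes. By limma 0 of the 33 passed, against 0.186% of all genes called higher. At an unadjusted p under 0.05, 7 were higher, against 5.95% of all genes: Kif2c by 0.76, Cdca3 by 0.76, Mad2l1 by 0.72, Cenpa by 0.67, Anln by 0.62, Kif4 by 0.49 and Bub1b by 0.38. The smallest adjusted p was 0.199, for Anln. In 1 gene of the 33, Anln, every untreated grade 2 tumour was below every untreated grade 3 tumour, a count near the share of 3.32% of all genes. Within mouse 8565, the single untreated mouse with both grades, the grade 3 tumour was higher than the mean of its 2 grade 2 tumours in 30 of the 33 genes, by a median of 0.34. Of all genes, 51% were lower there. That is 1 tumour against 2 and has no test. Markers of other cell types also differed between grades in untreated tumours. All 5 endothelial markers had lower fitted signals in grade 3, 4 of them at an unadjusted p under 0.05, with a median of -0.65 that was larger in size than that of the 33 genes. Of the 8 T and NK cell markers 7 were lower, with a median of -0.36 and 1 at an unadjusted p under 0.05. By limma 0 markers of both lists passed, with a smallest adjusted p of 0.169, and their part in the grade result was not tested.

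Among treated tumours 24 of the 33 genes had higher and 9 lower fitted signals in grade 3, while 44.6% of all genes were lower. The median of the 33 genes was 0.10, beside 0.02 over all genes. None was called, against 0% of all genes, and none had an unadjusted p under 0.05, against 1.27% of all genes. Within mouse 8688, which carried 6 grade 3 and 3 grade 2 treated tumours, 21 genes were lower and 12 higher in grade 3, with a median of -0.04. Of all genes, 42.2% were lower there, with a median of 0.03. The sign of the median of the 33 genes turned when 8639T4 was set aside. The difference between the grade effects of untreated and treated tumours is the interaction given above, which passed the test for 0 of the 33 genes.

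The 33 genes had 60 probe sets, 17 genes having at least 2. Of the 27 probe sets that did not stand for their gene, 21 had differences below 0 in grade 3, with a median of -0.54, and 24 in grade 2, with a median of -0.27. The 6 with a mean within 2 log2 units of the array median or above it had a median difference of -1.08 in grade 3, the 11 with means 2 to 3 below had -0.60, and the 10 that were weaker still had -0.01, with 5 below and 5 above 0. Of the genes' own probe sets, 21 of 33 had a mean above the array median in untreated grade 3 tumours, 17 in untreated grade 2, 9 in treated grade 3 and 10 in treated grade 2. In untreated grade 3 tumours 12 were below the array median, and the same 12 were below it in every group. They were those of Foxm1, Aurka, Plk1, Melk, Ttk, Cenpa, Cenpe, Cenpf, Kif11, Kif2c, Kif4 and Kif20a.

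**Figure D5:**
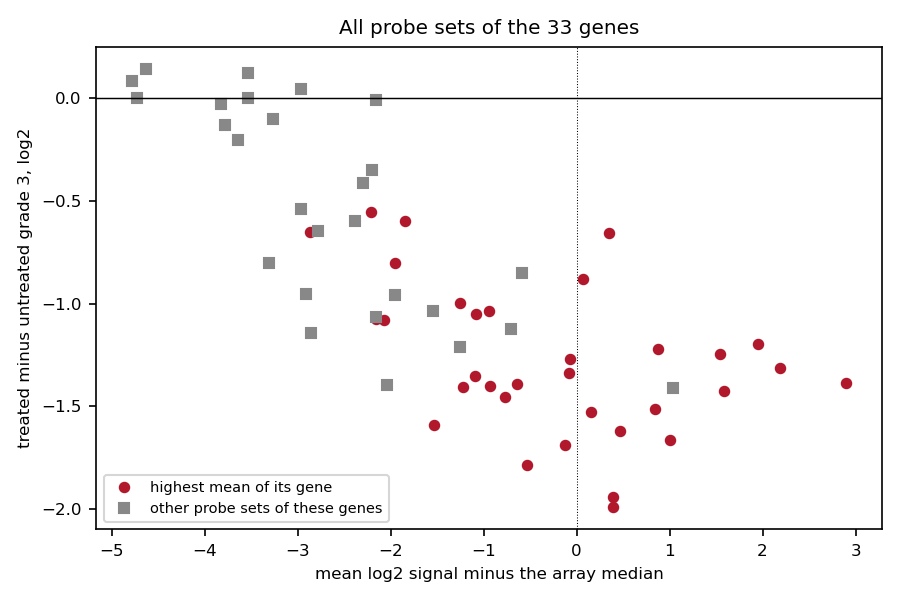
Treated minus untreated grade 3 log2 difference (vertical axis) of the 60 probe sets of the 33 genes against their mean log2 signal over 18 tumours minus the array median (horizontal axis), with the probe set that stood for its gene in red and the other 27 in grey. The 10 grey probe sets with a mean at least 3 below the array median have a median difference of -0.01, and the 33 red ones all lie below 0.

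Genes of the same pathway outside the list were read from lists chosen by function. Of 47 measured other mitosis genes, 3 fell in grade 3 and none rose: Spag5, a spindle protein, by 1.38 (SE 0.26, adjusted p = 0.0214), Ncapg, a condensin subunit, by 1.37 (SE 0.27, adjusted p = 0.0276), and Tacc3, which stabilises spindle fibres, by 1.10 (SE 0.22, adjusted p = 0.0329). In all, 44 of the 47 had lower fitted signals in treated grade 3 tumours, with a median of -0.71, and 34 were lower at an unadjusted p under 0.05. Over all genes 0.347% were called lower and 4.48% were lower at an unadjusted p under 0.05. In grade 2 the same number had lower fitted signals, with a median of -0.46, 0 called by limma and 18 lower at an unadjusted p under 0.05, against 0.0565% and 3.36% of all genes. The 12 measured constitutive subunits of the anaphase-promoting complex, which are present through the cycle, had medians of 0.06 in grade 3 and -0.12 in grade 2. None was called, and at an unadjusted p under 0.05 there were 0 in grade 3 and 1 lower in grade 2. The 9 measured genes of the DREAM and MuvB complexes had medians of 0.00 and -0.01. None was called, and 1 was lower in each grade and 1 higher in grade 2 at an unadjusted p under 0.05. In that list Mybl2, which encodes B-MYB, differed by -0.29 in grade 3 (adjusted p = 0.307). Of 5 measured genes that act on CDK1, or form or regulate the phosphatase that undoes its work, none was called. Wee1, the kinase that inhibits CDK1, differed by 0.83 in grade 3 (SE 0.33, adjusted p = 0.379) and 0.62 in grade 2 (SE 0.34, adjusted p = 0.814).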

How the data were processed

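The values that the authors deposited are log2 signals of single-colour arrays, 1 per probe set. The submitters' processing notes name GCRMA 2.20.0 and R 2.11.0. This method models background from probe sequence, equalises the distribution of signals between arrays and combines the probes of a set. That takes out differences in total RNA and can compress weak signals. Batches and scan dates are not stated in the sources used here. The full genotype of the mice is not reported here.

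Of 22690 probe sets, 20380 had 1 gene symbol in the platform annotation, 691 had several, 1555 had none and 64 were controls. Probe sets with several or none were named for no gene. The 12393 genes were each represented by the probe set with the highest mean, with no filter on low signals, and no 2 arrays were duplicates (correlations 0.974 to 0.997). limma 3.58.1 in R 4.3.3 fitted 4 group means to all 18 tumours, with the mouse as a random block (correlation 0.235) and Benjamini-Hochberg adjustment over all genes at a threshold of 0.05. Of the 6 comparisons, 4 were on treatment (in each grade, their mean and their interaction) and 2 on grade (in untreated and in treated tumours). Spread and p-values are over tumours, and the number of arrays limits the precision. The steps were tested on simulated data.

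The genes, roles, marker and pathway lists were chosen with earlier results of these data known, so their direction is not independent support. Per-tumour values are given for genes called in any comparison and, always, for Mki67, Top2a, Cdk1, Plk1, Aurkb, Birc5, Foxm1 and Cep55. The other genes are given by their differences, and up to 3 genes per pathway list by smallest p. Promoter windows are from RefSeq on GRCm38.p6.

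Alternatives were no animal term, animal means, animal as a fixed block (grade only), 2 filters on low signals, the mean of probe sets, no shared probe sets, 2 further normalisations, only the groups compared, another spread model, array weights, sex as a covariate, and leaving out each tumour, 5 of the mice in turn, or the tumours with a 3' excess.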

Additional observations from a re-analysis of the deposited data

Results flagged for a closer look

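A tumour stood far from the rest of its group in 6 of 72 groups of values tested, where chance flags about 1 in 20. The 72 groups come from the same 18 tumours and are not independent, so the count cannot be weighed against that share. In treated grade 2 tumours 8639T4 was far below the other 3: the mean log2 signal of the 33 genes was 4.80 against 5.44 to 5.51. The same tumour read 4.49 in Ccnb2 against 5.01 to 5.06, 4.63 in Cdca3 against 5.58 to 5.65, and 4.29 in Kif20a against 4.69 to 4.75. In treated grade 3 tumours 8688T5 read 9.37 in Birc5, above the other 5 at 8.34 to 8.71. In untreated grade 3 tumours 8629T12 read 8.10 in Anln, above the other 3 at 7.43 to 7.49.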

How the results depend on the processing

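All 33 genes, or all that an alternative kept, stayed below 0 in the 3 treatment comparisons under every alternative except the one without shared probe sets. Shared here means only a name ending in _x_at, _s_at or _a_at. The sets of Cdca3 and Top2a so left out end in _a_at and were annotated to their gene alone. Whether they detect other genes was not tested. The alternative without such sets kept 26 of the 33 genes, with 24 below 0 in grade 3. It turned Cdca3 to 0.00057 in grade 3, 0.196 in grade 2 and 0.098 averaged over grades and Top2a to 0.124, 0.060 and 0.092, because other, weaker probe sets then stood for the genes. The number of genes called moved far more than the differences did. In grade 3, against 8, it was 27 with no animal term, 0 with animal means, 4 with only genes above the array median on 4 arrays, 5 with no shared probe sets, 1 with only the groups compared, 32 with array weights and 1 with sex as a covariate. It was 1 without mouse 8565, 32 without 8584, 1 without 8629 and 2 without 8688T3 and 8639T4. In grade 2, against 0, it was 2 with no animal term, 5 with array weights and 3 without mouse 8584. Averaged over grades, against 9, it was 32 with no animal term, 0 with animal means, 4 with the mean of probe sets, 4 with no shared probe sets, 33 with array weights and 0 with sex as a covariate. It was 1 without mouse 8565, 32 without 8584, 3 without 8629, 3 without 8639 and 1 without 8688T3 and 8639T4. Leaving out each tumour gave 1 to 32 calls in grade 3, 0 to 3 in grade 2 and 2 to 32 averaged. The median grade 3 difference moved to -1.87 with sex as a covariate and to -0.90 without mouse 8629, and the median interaction to -0.80 with array weights. The value with sex as a covariate rests on the 1 male treated tumour, 8639T4. With array weights 3 genes were called higher in untreated grade 3 than grade 2 tumours. Among all genes, the calls in grade 3 were 64 and ran from 1 with animal means to 473 with no animal term. In grade 2 they were 10 and ran from 1 to 790, and averaged 67 and from 1 to 1086, both highest with array weights. The causes were not tested. No paired analysis was possible because replicate numbers are only names here and no mouse carried both treated and untreated tumours. For the same reason animal as a fixed block gave no treatment value.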

Other observations

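The gap between 8584T3 and the other untreated grade 3 tumours was uneven over the 33 genes. It ran from -2.68 to -0.22 with a median of -1.22, beside -0.02 over all genes, and 8584T3 was below all 3 of the others in 31 genes, against 32.8% of all genes. Set against the treated grade 3 tumours, 8584T3 was higher than their mean in 25 genes and lower in 8, with a median difference of 0.25 and a highest value of 1.46. Of all genes, 54.6% were lower there, with a median of -0.03.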
